A study of Mus musculus with 10 samples.

Results

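Cxcl12 encodes the chemokine CXCL12, and Cxcr4 and Ackr3 encode the receptors that bind it. The 3 genes were chosen by their measured values in the comparison of Apc-deleted with wild-type oligodendrocyte precursor cells (OPCs), where both receptors were higher with Apc deletion and the ligand was not. Their values in that comparison are therefore a description, with no test. All 3 had a row among the 19333 genes of the OPC comparison and among the 22064 genes listed for each sorted library. The line between receptors and ligand was an adjusted p of 0.05, with Ackr3 at 0.00120 and Cxcr4 at 0.00240 inside it in the authors' deposited table. Cxcl12 lay outside, at an unadjusted p of 0.680 in the authors' deposited table.

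CXCL12 is a secreted chemokine that stromal, endothelial and neural cells make and that binds matrix sugars. CXCR4 is its G protein-coupled receptor, which signals through Gi to phosphoinositide 3-kinase, Rac and MAP kinases and drives migration and retention of cells. ACKR3 (formerly CXCR7) binds the same ligand, does not couple to Gi in the usual way, recruits beta-arrestin and carries bound CXCL12 into the cell for degradation, and it also binds CXCL11 and the peptide adrenomedullin. APC holds together the protein assembly that marks beta-catenin for destruction, so its loss raises transcription by beta-catenin with TCF and LEF factors. In mouse OPCs, Wnt signalling is known to raise Cxcr4 and to hold the cells on blood vessels during migration.

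The groups were 3 libraries of Olig2-Cre:Apc-fl/fl OPCs and 3 of OPCs from Apc-fl/fl littermates, called wild type by the submitters. Olig2-Cre deletes the floxed alleles in cells that express Olig2. These cells were immunopanned (captured on antibody-coated dishes) and kept for 3 days in medium with the growth factor PDGFAA. The sorted libraries came from spinal cords on day 18 after induction of experimental autoimmune encephalomyelitis (EAE), an autoimmune model of multiple sclerosis, in Pdgfra-CreER:Apc-fl/fl mice. They were 1 library of CD4+ cells labelled Th1 and 3 libraries of CD11b+Gr-1+NK1.1+ cells named cytotoxic macrophages. All 4 groups carried Apc-fl/fl, no sorted group without Cre was analysed here, and CreER acts only with tamoxifen, whose dosing, like the ages of the mice, is not stated in the labels. No source used here says that libraries of a group came from separate animals. SDs therefore describe how far these libraries spread, which may be technical variation alone, and p-values weigh differences against that spread.

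The library labelled Th1 summed to 3051730 estimated reads, and each macrophage library to between 23174908 and 23564215. In the library labelled Th1, 6534 genes had a read, at a median of 2 reads, against 13646 to 13719 genes at medians of 124 to 130 reads in the macrophage libraries. At macrophage levels 2392 genes would have had at least 100 reads in the library labelled Th1, and 537 of these had none. Of the 12 T cell markers that the annotation holds, 11 had no read in the library labelled Th1, Cd4 and Cd3e among them, while the T cell kinase gene Lck had 422 reads. Neutrophil markers summed to 25190.5 TPM (transcripts scaled for length and to a common total) in the library labelled Th1, against 434053 to 437137 TPM in the macrophage libraries. Macrophage and monocyte markers summed to 12397.6 TPM in the library labelled Th1, against 33768.6 to 34346.2 TPM in the macrophage libraries. Ms4a7 had 394 TPM in the library labelled Th1 and 3.91 to 4.07 TPM in the macrophage libraries. For Cd14 these were 734 and 58.7 to 62.4 TPM. Adgre1, Fcgr1, Cd163 and Gpnmb were also higher in TPM in the library labelled Th1. Lyz2, Cd68, Csf1r, Mertk, Itgam, Mrc1, Ly6c2 and Plac8 were lower in TPM there. Cd163 rests on 2 reads in that library, and Mertk and Mrc1 on 1 read each. With counts scaled by DESeq2 size factors, Lyz2, Csf1r, Mertk and Mrc1 turned higher there, at log2 fold changes of 1.18, 1.34, 0.07 and 0.78. The other markers of this list kept their direction. The macrophage libraries had Itgam, which encodes CD11b, at 12.3 ± 0.343 TPM, and Klrb1c, which encodes NK1.1, at 0.0733 ± 0.0252 TPM (SD, n = 3). Of the Gr-1 antigens, which Ly6c2 and Ly6g encode, they held 6376 ± 160 and 743 ± 14.2 TPM (SD, n = 3), and the library labelled Th1 had no read of either. Both sorted names are kept as labels only. For the OPC cultures no value per library was used here, so the depth and spread of each OPC library are unknown.

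The promoters of the 3 genes are shown because both receptors changed together with a perturbation of the beta-catenin pathway and the ligand did not. Each sequence is the 250 bases before the gene's start in RefSeq on GRCm38.p6, read 5′ to 3′ on the gene's strand. Capitals mark matches on either strand to CTTTG, the core of the TCF and LEF site (its longer form CTTTGAT included), to CGCATGCG, the palindrome bound by NRF1, and to TATAAA, the TATA box. The windows are chr1:128592300-128592549 on the minus strand for Cxcr4, chr1:90203730-90203979 on the plus strand for Ackr3 and chr6:117168285-117168534 on the plus strand for Cxcl12.
Cxcr4: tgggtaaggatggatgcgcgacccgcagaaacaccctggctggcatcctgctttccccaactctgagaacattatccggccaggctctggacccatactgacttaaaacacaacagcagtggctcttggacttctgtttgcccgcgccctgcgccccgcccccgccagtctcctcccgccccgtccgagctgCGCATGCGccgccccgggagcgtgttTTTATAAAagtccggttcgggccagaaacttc
Ackr3: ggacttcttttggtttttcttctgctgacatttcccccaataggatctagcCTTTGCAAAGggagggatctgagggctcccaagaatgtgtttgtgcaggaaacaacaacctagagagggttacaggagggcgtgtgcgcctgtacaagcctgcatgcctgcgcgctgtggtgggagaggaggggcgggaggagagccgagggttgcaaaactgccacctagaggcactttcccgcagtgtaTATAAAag
Cxcl12: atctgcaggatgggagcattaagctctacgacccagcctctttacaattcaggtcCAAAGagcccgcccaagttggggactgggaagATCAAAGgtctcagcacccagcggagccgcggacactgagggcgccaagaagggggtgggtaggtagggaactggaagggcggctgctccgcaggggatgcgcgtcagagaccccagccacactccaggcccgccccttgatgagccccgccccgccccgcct

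The Cxcr4 window held no CTTTG, the Ackr3 window 2 and the Cxcl12 window 2, a motif present in 48.6% of the 32851 promoter windows of 27025 mouse genes. The Ackr3 matches lay end to end on opposite strands, at bases 199 to 195 and 194 to 190 before the start. CTTTGAT occurred only in Cxcl12 among the 3 genes, once, at bases 163 to 157 before the start and overlapping one of its CTTTG matches, and 3.21% of all windows hold it. The Cxcr4 window had the single CGCATGCG of the 3 genes, at bases 58 to 51 before the start, a motif held by 1.55% of windows. In human cells NRF1 is known to bind at the CXCR4 promoter. TATAAA matched in Cxcr4 at bases 30 to 25 and, on the other strand and overlapping it, at bases 32 to 27. Ackr3 held TATAAA at bases 8 to 3 before the start, Cxcl12 did not, and 12.4% of windows contain it. CCGCCC, the core of the Sp1 site and not capitalised above, was found 3 times in Cxcr4, once in Ackr3 and 5 times in Cxcl12, against 32.7% of windows with at least 1 match. GC content was 61.2% for Cxcr4, 54% for Ackr3 and 64.4% for Cxcl12. These are matches of letters in short windows and show no binding.

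In the OPC cultures both receptors were several-fold higher with Apc deletion and the ligand differed by less than its error. The authors' deposited table gives each gene 1 mean normalized count over both genotypes and 1 log2 fold change, whose standard error (SE) stands beside it, and no value per library. The numerator is not named there, so the sign was read from the Wnt feedback targets Notum, Sp5, Lef1 and Axin2, and fold changes are given for Apc-deleted relative to wild-type cultures with that sign. A level per genotype is implied by the mean and the fold change if both genotypes weigh equally in the mean. In bulk cultures fewer cells of a type and less RNA per cell cannot be told apart.

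Cxcr4 (ENSMUSG00000045382.6, chromosome 1, 128588199 to 128592293 on the minus strand of GRCm38, 2 annotated transcripts) had a mean of 516 normalized counts in the authors' deposited table. That value and the fold change imply 879.7 normalized counts in Apc-deleted cultures and 153 in wild-type cultures in the authors' deposited table. Its log2 fold change there was 2.53 (SE 0.56), that is 5.76-fold with a 95% interval of 2.69 to 12.3 from the authors' deposited table. By p-value the gene ranked 53rd of 19333 in the authors' deposited table.

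Ackr3 (ENSMUSG00000044337.5, chromosome 1, 90203980 to 90216751 on the plus strand, 2 annotated transcripts) was the scarcer receptor by count, at a mean of 64.6 normalized counts in the authors' deposited table. The implied levels were 102 normalized counts in Apc-deleted cultures and 27.2 in wild-type cultures in the authors' deposited table. Its log2 fold change was 1.91 (SE 0.41), or 3.75-fold with an interval of 2.16 to 6.53, and its p ranked 46th in the authors' deposited table. The intervals of the receptors' fold changes overlap, and a difference between them could not be tested without values per library.

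Cxcl12 (ENSMUSG00000061353.11, chromosome 6, 117168535 to 117181367 on the plus strand, 4 annotated transcripts) had a mean of 158 normalized counts in the authors' deposited table. Its implied levels were 154 normalized counts in Apc-deleted cultures and 163 in wild-type cultures in the authors' deposited table. The log2 fold change was -0.08 (SE 0.19), with an interval of -0.45 to 0.29, in the authors' deposited table. As a fold that interval runs from 0.734 to 1.22, and changes of the ligand within those bounds are not told apart from none by the authors' deposited table.

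Against this stands the background of the comparison, in which 0.393% of the 19333 genes were higher and 0.548% were called in either direction at the 0.05 level of adjusted p in the authors' deposited table. Of the 3 genes, 2 were called, both higher, and since this contrast chose them nothing is read from that share. The median log2 fold change over all genes was 0.00 in the authors' deposited table. Apc itself stood at -0.14 (SE 0.13) in the authors' deposited table, a value over the whole gene that does not single out the floxed exons.

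Levels can be set side by side only per length. Dividing by the union of annotated exons (1808 bases for Cxcr4, 3348 for Ackr3 and 8176 for Cxcl12), Cxcr4 was the most abundant of the 3 in both genotypes. The implied level of Cxcr4 was 487 normalized counts per kilobase in Apc-deleted cultures and 84.4 in wild-type cultures, from the authors' deposited table. Ackr3 was at 30.5 normalized counts per kilobase in Apc-deleted cultures and 8.12 in wild-type cultures, and Cxcl12 at 18.8 and 19.9 in the same order, from the authors' deposited table. The order was therefore Cxcr4, Ackr3, Cxcl12 in Apc-deleted cultures and Cxcr4, Cxcl12, Ackr3 in wild-type cultures. Whether neighbours in these orders differ beyond the spread of the libraries is unknown, and the exon union of Cxcl12 is longer than any 1 of its transcripts, which lowers its value per kilobase. Among all genes the mean per kilobase of Cxcr4 lay at percentile 85.5 and that of Ackr3 and of Cxcl12 at percentile 39.1, from the authors' deposited table.

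**Figure D1:**
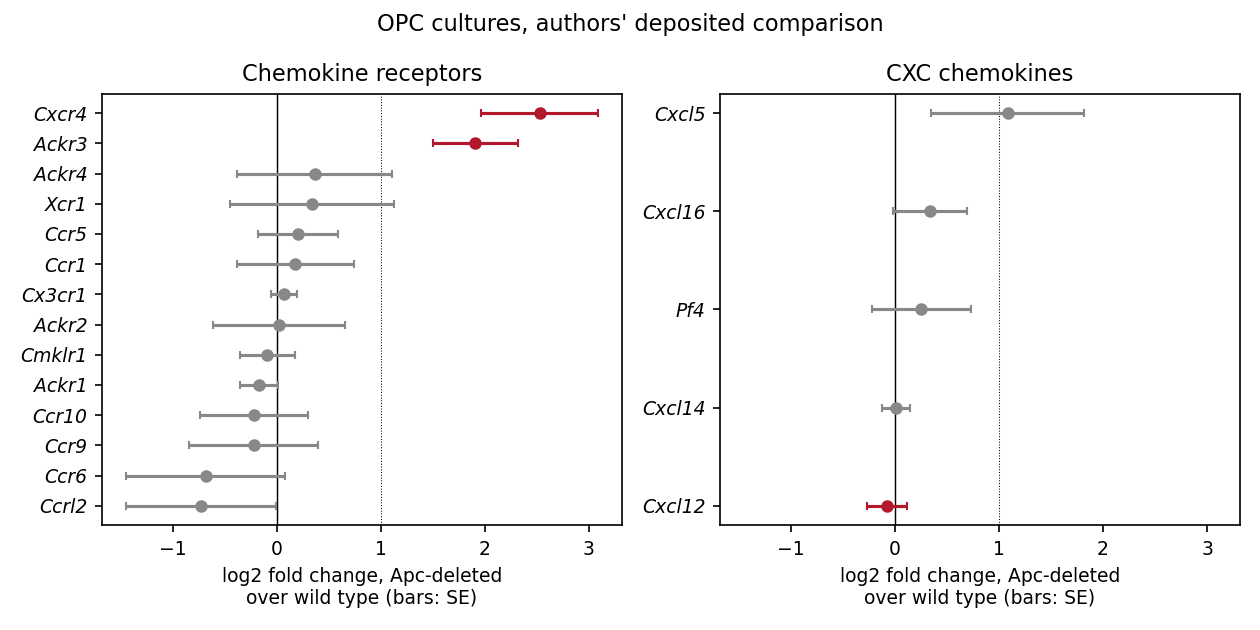
Log2 fold change of Apc-deleted over wild-type OPC cultures (x axis) for the 14 measured chemokine receptors (left) and 5 measured CXC chemokines (right), from the authors' deposited table. Points are fold changes, bars are 1 SE to each side, the dotted line marks a log2 value of 1 and red marks Cxcr4, Ackr3 and Cxcl12. Cxcr4 at 2.53 and Ackr3 at 1.91 were chosen by this comparison, and the other receptors span -0.73 to 0.36.

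The other chemokine receptors give the setting for Cxcr4 and Ackr3. Of 25 receptor genes listed, 14 were measured and 2 were called, namely those 2, against 0.548% of all genes, in the authors' deposited table. Since this comparison chose those 2, nothing is read from their standing apart from the others. The other 12 lay between -0.73 for Ccrl2, which binds chemerin without signalling, and 0.36 for Ackr4, a scavenger of CCL19 and CCL21, with a smallest p of 0.313 in the authors' deposited table. Ackr1, the atypical receptor that binds many chemokines, was at -0.17 (SE 0.18), and Cx3cr1, the fractalkine receptor of microglia, at 0.07 (SE 0.12) in the authors' deposited table. Among CXC chemokines 5 of 15 were measured and none was called in the authors' deposited table, where 0 of these 5 but 701 of all genes had an unadjusted p under 0.05. Cxcl5, a neutrophil attractant, was at 1.08 (SE 0.74), Cxcl16, the ligand of CXCR6, at 0.34 (SE 0.35), and the platelet chemokine gene Pf4 at 0.25 (SE 0.47) in the authors' deposited table.

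The alternative ligands of the receptors included 1 gene that passed. Adm encodes the precursor of adrenomedullin, a vasoactive peptide that ACKR3 binds. From a mean of 111 normalized counts it was implied at 148 in Apc-deleted and 72.8 in wild-type cultures in the authors' deposited table. Adm rose by 1.03 on the log2 scale (SE 0.25, adjusted p = 0.00838) in the authors' deposited table. Of the 6 measured genes of this list it was the single call, against 0.393% of all genes called higher. The list's median was -0.01 in the authors' deposited table. Mif, a cytokine that binds CXCR4 and ACKR3, was at 0.10 (SE 0.18) and Cxcl14 at 0.01 (SE 0.14) in the authors' deposited table. Penk and Pdyn, the precursors of opioid peptides that ACKR3 takes up, were at -0.03 (SE 0.18) and -0.19 (SE 0.18) in the authors' deposited table. The authors' deposited table has Hmgb1, whose product forms a complex with CXCL12, at -0.18 (SE 0.24).

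Genes for cleavage and presentation of CXCL12 had no call among 8 measured members, with a median of -0.02, in the authors' deposited table. Sdc1, a heparan sulphate proteoglycan of the cell surface, was at 0.68 (SE 0.25, adjusted p = 0.510), the 1 member with an unadjusted p below 0.05, in the authors' deposited table. Mmp9 and Mmp14, proteases that cleave CXCL12, were at -0.49 (SE 0.34) and 0.01 (SE 0.12) in the authors' deposited table. The authors' deposited table has Dpp4, the peptidase that removes the first residues of CXCL12, at 0.33 (SE 0.43). Of 6 measured receptor partners none was called, at a median of 0.21, in the authors' deposited table. Cd74, which forms a receptor for MIF together with CXCR4, was at 1.40 (SE 0.80) from a mean of 6.33 normalized counts in the authors' deposited table. Cd44, the hyaluronan receptor, was at 0.76 (SE 0.32, adjusted p = 0.934), again the 1 member with an unadjusted p below 0.05, in the authors' deposited table.

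Among genes that end receptor signalling, 2 regulators of Gi signalling rose. RGS1 and RGS16 are GTPase activators that switch off Gi and limit responses to chemokines. Rgs1 was implied at 30.8 normalized counts in Apc-deleted cultures and 0.950 in wild-type cultures in the authors' deposited table. Its log2 fold change was 5.02 (SE 1.11, adjusted p = 0.00240) in the authors' deposited table, a size that rests on a wild-type level near 1 count. Rgs16 was implied at 59.0 normalized counts in Apc-deleted cultures and 21.9 in wild-type cultures in the authors' deposited table. It rose by 1.43 on the log2 scale (SE 0.34, adjusted p = 0.00716) in the authors' deposited table. The list of 16 measured desensitization and sorting genes had these 2 calls, both higher, against 0.393% of all genes called higher. The list's median was 0.01 in the authors' deposited table. The arrestins, which bind the phosphorylated receptors, were at -0.18 (SE 0.11) for Arrb1 and -0.02 (SE 0.11) for Arrb2 in the authors' deposited table. Grk2 and Grk3, kinases that phosphorylate the receptor tail, were at -0.03 (SE 0.11) and 0.22 (SE 0.13), and Itch, the ubiquitin ligase that sends CXCR4 to lysosomes, at -0.07 (SE 0.13) in the authors' deposited table.

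**Figure D2:**
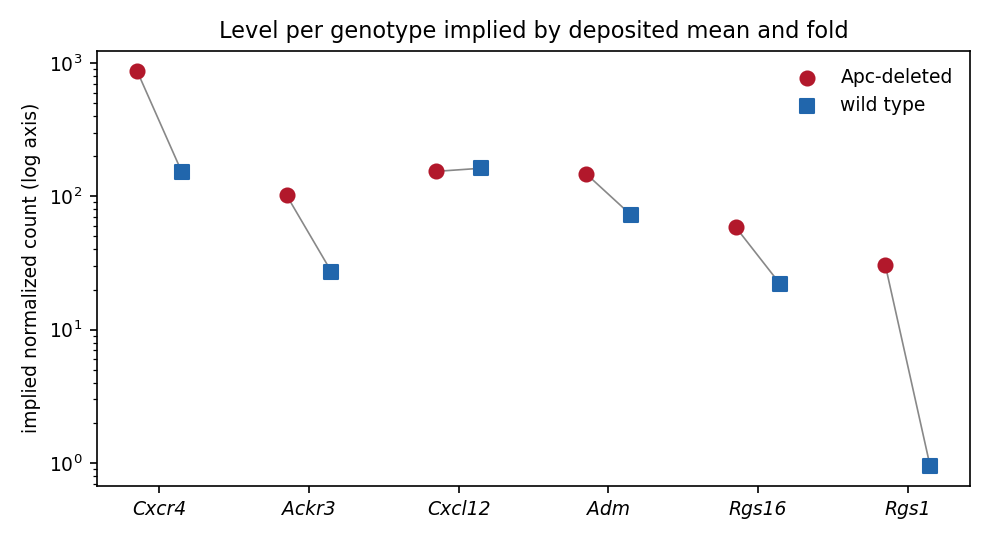
Implied normalized count (y axis, log scale) in Apc-deleted (red circles) and wild-type (blue squares) OPC cultures for Cxcr4, Ackr3, Cxcl12 and the 3 called genes of the ligand and desensitization lists, from the mean and fold change of the authors' deposited table. There is 1 point per genotype, with no spread, and lines join the genotypes. Cxcl12 lies level at 154 and 163 while the other 5 genes lie higher in Apc-deleted cultures.

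Downstream signalling genes showed no call among 24 measured members, of which 16 pointed higher and 8 lower at a median of 0.11 in the authors' deposited table. Their log2 fold changes ran from -0.20 to 1.32, the highest being that of Pik3r5, a subunit of the kinase that Gi-coupled receptors activate, from a mean of 7.77 normalized counts in the authors' deposited table. The member with an unadjusted p under 0.05 was Vav1, an exchange factor for Rac, at 0.80 (SE 0.33, unadjusted p = 0.0150) in the authors' deposited table. Of 11 measured transcription factors and oxygen sensors known to act on Cxcr4, Ackr3 or Cxcl12, none was called, at a median of -0.04, in the authors' deposited table. Nrf1, the activator of CXCR4 in human cells, was at 0.08 (SE 0.12), and Yy1, known as its repressor, at -0.04 (SE 0.14) in the authors' deposited table. Hif1a, the hypoxia factor, was at -0.07 (SE 0.10), and Egr1, an immediate early factor and the 1 member with an unadjusted p under 0.05, at 0.24 (SE 0.11) in the authors' deposited table.

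The error of Cxcr4 was wide for its level. Its SE was 3.87 times the median SE of genes of similar mean, against 1.49 times for Ackr3 and 0.931 times for Cxcl12 in the authors' deposited table. The Wnt feedback target Nkd1, at 2.47, had a ratio of 3.83, and its list of 15 had a median ratio of 1.34 in the authors' deposited table. Besides Nkd1 and the 4 genes that set the sign, the calls of that list were Rnf43 at 2.89, Tnfrsf19 at 1.83 and Wif1 at 1.51, all higher, in the authors' deposited table. Lyz2, the lysozyme gene of phagocytes, at 4.33, had a ratio of 7.12, and Gpnmb, a glycoprotein gene of phagocytes, at 4.49, a ratio of 7.90 in the authors' deposited table. They are 2 of 12 measured macrophage and monocyte markers, whose ratios ran from 0.956 to 7.90 at a median of 1.28 in the authors' deposited table. The 11 OPC markers had a median ratio of 1.58 there, so a wide error was not particular to these lists. Rgs1 had a ratio of 2.21 and Rgs16 of 1.01, and Adm of 1.07, in the authors' deposited table. Which libraries carried the spread of Cxcr4 cannot be read without values per library.

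**Figure D3:**
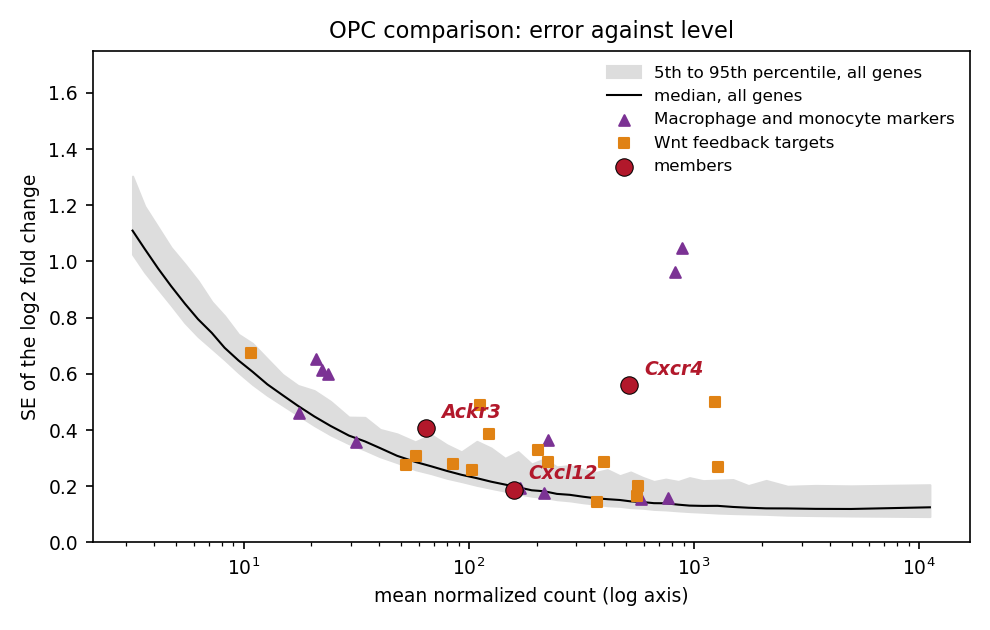
SE of the log2 fold change (y axis) against mean normalized count (x axis, log scale) for the OPC comparison, from the authors' deposited table. The line is the median and the band the 5th to 95th percentile over all genes in bins of level, red circles are Cxcr4, Ackr3 and Cxcl12, orange squares Wnt feedback targets and purple triangles macrophage and monocyte markers. Cxcl12, at an SE of 0.19, lies on the line, Ackr3, at 0.41, just above the band and Cxcr4, at 0.56, far above it.

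Markers of other cell types that also use this axis were examined beside the receptors. Macrophage and monocyte markers summed to 5489 implied normalized counts in Apc-deleted cultures and 2074 in wild-type cultures in the authors' deposited table. Most of that gap lay in Lyz2, at 1568 and 78.1 in the same order, and Gpnmb, at 1694 and 75.3, in the authors' deposited table. Of 12 measured genes 11 pointed higher and 3 were called (Lyz2, Gpnmb and Cd68), against 0.393% of all genes called higher there. Adgre1 at 1.87 (SE 0.65, adjusted p = 0.381), Cd14 at 1.78 (SE 0.61, adjusted p = 0.346) and Ms4a7 at 1.59 (SE 0.60, adjusted p = 0.574) were not called, so that 6 of the 12 had an unadjusted p below 0.05, in the authors' deposited table. Within that list Csf1r was at 0.01, Mertk at 0.00 and Itgam at 0.12 in the authors' deposited table, and the list's Ly6c2 and Plac8 had no row. Microglia markers, which share Csf1r with that list, summed to 4052 in Apc-deleted and 3536 in wild-type cultures, with 6 of 10 pointing higher, none called and 3 at an unadjusted p below 0.05, in the authors' deposited table. Neutrophil markers summed to 571 in Apc-deleted and 644 in wild-type cultures, with 10 of 11 measured genes pointing lower, none called and 0 at an unadjusted p below 0.05, in the authors' deposited table. The part of these cells in the receptor values was not tested.

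Vascular and neural markers were summed in the same way. Endothelial markers summed to 2763 implied normalized counts in Apc-deleted and 2951 in wild-type cultures, and pericyte, fibroblast and meningeal markers to 4814 and 4950.1 in the same order, with no call among 9 and 11 genes in the authors' deposited table. Unadjusted, 0 endothelial and 1 pericyte, fibroblast and meningeal marker (Acta2, at 0.69) had a p under 0.05 in the authors' deposited table. Neuron markers were all lower and uncalled, summing to 392201 in Apc-deleted and 413889 in wild-type cultures in the authors' deposited table. OPC markers summed to less, 46752 and 44179 in the same order, in the authors' deposited table. Counts of genes of unlike length are not shares of cells, so these sums do not rank the cell types. How pure the cultures were is unknown, and their name as OPC cultures is kept as a label. Astrocyte markers summed to 68117.5 in Apc-deleted and 72356 in wild-type cultures, with no call among 8, in the authors' deposited table. Oligodendrocyte markers summed to 34262 in Apc-deleted and 40355 in wild-type cultures, with 3 of 9 called lower (Enpp6 at -1.15, Myrf at -1.08 and Bcas1 at -0.65), in the authors' deposited table. The OPC list itself had 1 call higher, Matn4, and 2 lower, Gpr17 and Nkx2-2, among 11 genes in the authors' deposited table. Over all genes 0.548% were called in either direction there.

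**Figure D4:**
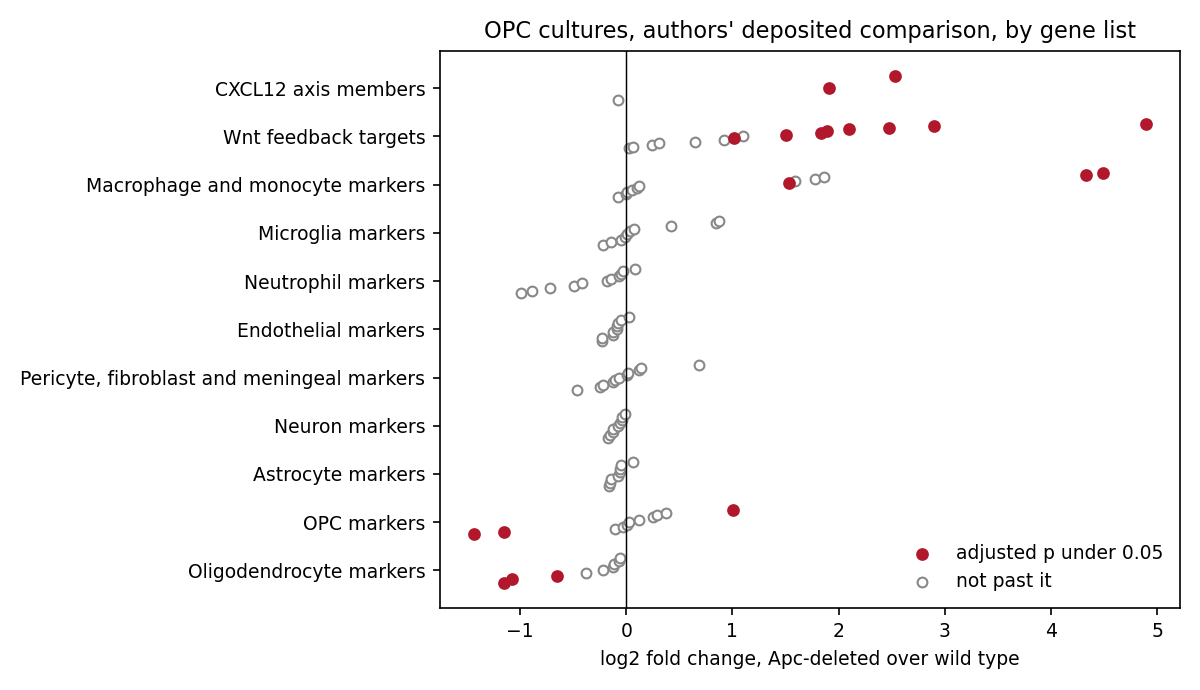
Log2 fold change of Apc-deleted over wild-type OPC cultures (x axis) for the members of gene lists (rows), from the authors' deposited table. Each point is 1 gene, filled where the adjusted p is under 0.05 and open where it is not. Both receptors, chosen by this comparison, lie at 2.53 and 1.91. The Wnt feedback targets, 4 of which set the sign, run from 0.03 to 4.90. The 3 called macrophage and monocyte markers lie at 1.54, 4.33 and 4.49. Nothing is read from the receptors lying within these wide ranges. The 12 other measured chemokine receptors, not drawn here, lie between -0.73 and 0.36.

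In the sorted EAE libraries, which the choice of genes did not use, Cxcr4 was the member of the axis with reads to compare. Cxcr4 had 40.6 TPM (208 reads) in the library labelled Th1. The macrophage libraries had 3.75, 3.78 and 3.92 TPM (271, 277 and 283 reads), a mean of 3.82 ± 0.0907 TPM (SD, n = 3). The library labelled Th1 thus lay above all 3 macrophage libraries, which differed little among themselves. As counts scaled to the library total (CPM), these were 68.2 CPM in the library labelled Th1, with a 95% Poisson interval of 59.2 to 78.1 that covers counting error only, and 11.7, 11.8 and 12.1 CPM in the macrophage libraries.

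By edgeR's quasi-likelihood test on the read counts, Cxcr4 was higher in the library labelled Th1 by 4.02 on the log2 scale, or 16.2-fold, at an adjusted p of 2.27e-17. With 1 library the spread of its group is unknown and was taken to be that of the macrophage libraries. In this comparison 13.7% of 11447 tested genes were called higher, 54.6% lower and 68.2% in either direction, with an adjusted p below 0.05 and a 4-fold change or more as the limits, so a call is common here. The median log2 fold change over all tested genes was -5.61. The size depended on the scaling, at 5.54 (46.4-fold) with DESeq2 size factors and 2.53 (5.76-fold) with library totals alone, a scaling chosen after seeing the data. Over 10 alternatives the log2 fold change of Cxcr4 lay between 2.53 and 5.54 and its adjusted p between 9.99e-286 and 1.13e-05. Called genes were 20.1% higher ones with TMM scaling, 36.9% with DESeq2 size factors, 11.9% with library totals alone and 43.7% with the DESeq2 test. The smaller share of neutrophil transcripts, the differing levels of macrophage and monocyte markers and the lower depth moved with this comparison. Their part in the result was not tested.

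Ackr3 was near the limit of detection in both sorted groups. It had 3 reads (0.49 TPM) in the library labelled Th1 and 2, 1 and 3 reads (0.02, 0.01 and 0.04 TPM) in the macrophage libraries. All 4 values are at or under the floor of 3 reads, so no fold is given. In CPM the library labelled Th1 was at 0.983, with a counting interval of 0.203 to 2.87, and the macrophage libraries together at 0.0855, with an interval of 0.0314 to 0.186. These intervals do not overlap, but rest on 3 and 6 reads. The filter on low counts removed Ackr3 from the test.

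Cxcl12 transcripts were as scarce. The library labelled Th1 had no read, where the 3-read floor is 0.983 CPM and the upper end of the 95% Poisson interval 1.21 CPM, and the macrophage libraries had 1, 2 and 1 reads (0.01, 0.03 and 0.01 TPM). The 3-read floor of the macrophage libraries lay between 0.127 and 0.129 CPM, and a difference between the groups was not detectable at this depth. The sorted libraries thus held transcripts of Cxcr4 with few or no reads of its ligand or of Ackr3.

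Among the 25 chemokine receptor genes, Cxcr4 ranked 2nd in the library labelled Th1, behind Cxcr2, and 7th in the macrophage libraries. The macrophage order by mean TPM was Cxcr2 at 48.4, Ccr2 at 29.7, Ccr1 at 28.2, Ccrl2 at 25.5, Cx3cr1 at 22.4, Cxcr1 at 12.4, Cxcr4 at 3.82 and Cmklr1 at 1.30. The libraries of Cxcr4 did not overlap those of its neighbours Cxcr1, at 12.2 to 12.6 TPM, and Cmklr1, at 1.24 to 1.41 TPM. In the library labelled Th1 7 receptor genes had a value, and Ccr2, Ccr1 and Cxcr1 had no read. Of the 14 receptor genes tested by edgeR, 1 was called higher (Cxcr4) and 8 lower, against 13.7% higher and 54.6% lower over all tested genes. These counts are near that background. The median log2 fold change of the 14 genes was -7.31, against -5.61 over all genes. With DESeq2 size factors 2 were called higher and 4 lower. Cxcr2, the neutrophil receptor for CXCL1 and CXCL2, had 89.4 TPM in the library labelled Th1 and 48.7, 47.6 and 48.8 TPM in the macrophage libraries. Its log2 fold change was 1.50 with TMM, 3.01 with DESeq2 size factors and 0.00 with library totals alone, so that it passed the 4-fold limit with DESeq2 size factors and not with the others. The ratio of Cxcr4 to Cxcr2 TPM within a library, which needs no scaling, was 0.454 in the library labelled Th1 and 0.0770, 0.0794 and 0.0803 in the macrophage libraries.

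**Figure D5:**
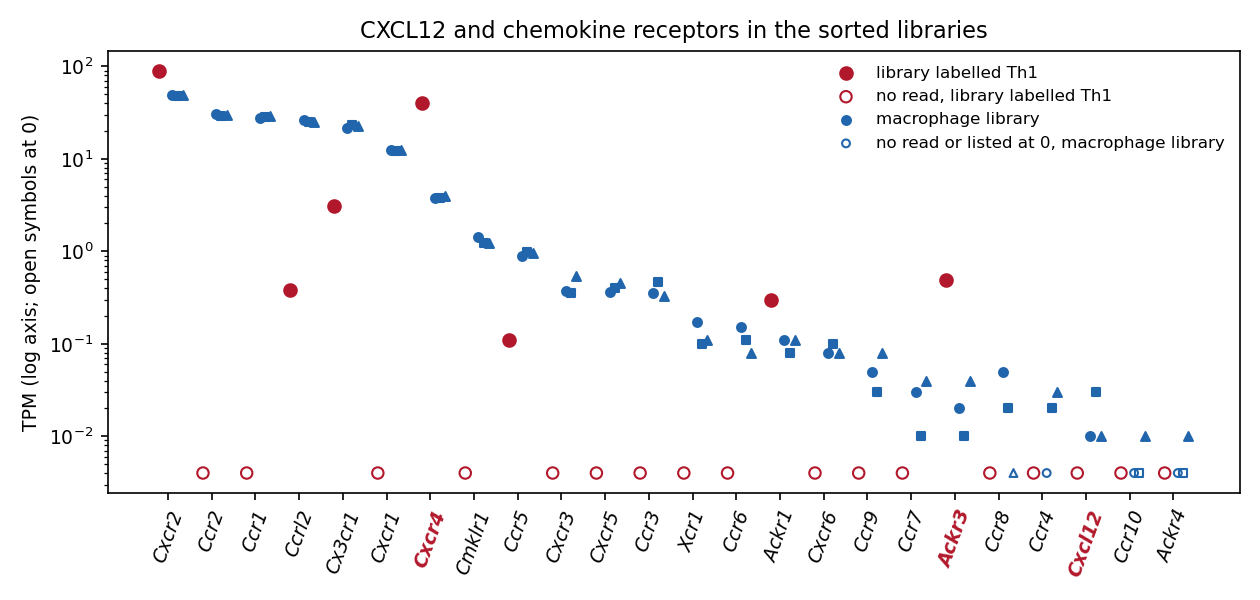
TPM (y axis, log scale) of the chemokine receptor genes with a value in at least 1 sorted library, and of Cxcl12, in the library labelled Th1 (red) and the 3 macrophage libraries (blue, a symbol each), ordered by macrophage mean. Open symbols at the foot mark no read or a listed 0. Cxcr4 is at 40.6 TPM in the library labelled Th1, against 3.75 to 3.92 TPM in the macrophage libraries, while Ackr3 and Cxcl12 lie under 1 TPM in all 4.

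The arrestins parted between the sorted groups. Arrb1, which encodes beta-arrestin 1, had 48.8 TPM in the library labelled Th1 and 0.797 ± 0.0153 TPM in the macrophage libraries (SD, n = 3). Arrb2, which encodes beta-arrestin 2, had 1.16 TPM (5 reads) in the library labelled Th1 and 37.4 ± 1.85 TPM in the macrophage libraries (SD, n = 3). By edgeR the log2 fold change was 6.53 for Arrb1 (adjusted p = 1.79e-26) and -4.72 for Arrb2 (adjusted p = 6.12e-11), and both kept their direction under all 3 scalings. Of 14 tested desensitization and sorting genes, 2 were called higher and 11 lower, or 2 and 7 with DESeq2 size factors. Over all tested genes 13.7% were called higher and 54.6% lower in the main comparison, so a call is common here. Rgs2, which acts mainly on Gq, was the other one called higher, at 261 TPM in the library labelled Th1 and 82.7 ± 0.634 TPM in the macrophage libraries (SD, n = 3). Its log2 fold change was 2.28 with TMM and 0.79 with library totals alone, which is below the 4-fold limit. Rgs1 was at 3.65 TPM in the library labelled Th1 and 5.29 ± 0.105 TPM in the macrophage libraries (SD, n = 3), and its direction changed with the scaling (0.14 with TMM, 1.66 with DESeq2 size factors, -1.35 with library totals alone). Rgs16 and Adm, called in the OPC comparison, had no read in any sorted library.

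The alternative ligand Mif had 3057 TPM in the library labelled Th1 and 327 ± 4.08 TPM in the macrophage libraries (SD, n = 3). By edgeR its log2 fold change was 4.06 (adjusted p = 1.89e-28), and 5.58 and 2.57 under the other scalings. Cd44 had 148 TPM in the library labelled Th1 and 21.7 ± 0.188 TPM in the macrophage libraries, a log2 fold change of 3.39 by edgeR (adjusted p = 3.49e-25) that was 1.89, below the 4-fold limit, with library totals alone. Cd74 was at 499 TPM in the library labelled Th1 and 973 ± 11.1 TPM in the macrophage libraries (SD, n = 3), with a direction that changed with the scaling (-0.31 with TMM, 1.21 with DESeq2 size factors, -1.81 with library totals alone). Mmp2, a protease that cleaves CXCL12, had 114 TPM (1073 reads) in the library labelled Th1 and 0.0400 ± 0.0173 TPM in the macrophage libraries (SD, n = 3). The cleaving proteases of granulocytes had the reverse pattern. Mmp9 and the neutrophil elastase gene Elane had no read in the library labelled Th1 and averaged 59.0 ± 0.872 and 60.0 ± 0.0929 TPM in the macrophage libraries (SD, n = 3). Many other genes of such macrophage levels also lacked reads in the library labelled Th1.

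Signalling genes were called higher for 5 and lower for 15 of 23 tested by edgeR, with a median of -3.57, beside the 68.2% of all tested genes that were called in either direction. With DESeq2 size factors 6 were called higher and 10 lower. Gnai2, the main Gi subunit of leukocytes, was at 325 TPM in the library labelled Th1 and 292, 298 and 300.04 TPM in the macrophage libraries, and its direction changed with the scaling (0.84 with TMM, 2.36 with DESeq2 size factors, -0.66 with library totals alone). Stat3, a transcription factor that cytokine receptors activate, had 373 TPM in the library labelled Th1 and 7.31 ± 0.228 TPM in the macrophage libraries (SD, n = 3). Fermt3, the integrin activator kindlin-3, had 303 TPM in the library labelled Th1 and 13.6 ± 0.146 TPM in the macrophage libraries (SD, n = 3). Rac2, the Rac of blood cells, had no read in the library labelled Th1 and 267 ± 14.2 TPM in the macrophage libraries (SD, n = 3). Gng2, a G protein gamma subunit, had no read in the library labelled Th1 and 23.3 ± 0.419 TPM in the macrophage libraries (SD, n = 3). Missing reads in the library labelled Th1 were not particular to these genes. None were found there for 537 of the 2392 genes with at least 100 reads expected at macrophage levels. With at least 1000 expected, 31 of 366 had none.

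Likeness of pattern was measured by the Euclidean distance over 3 values, the OPC log2 fold change and log2(TPM + 1) in the macrophage mean and in the library labelled Th1, among 14620 genes found in all files. The genes nearest Cxcr4 were Mapkapk5 at a distance of 1.36, Tor4a at 1.44, Adgre1, which encodes the macrophage antigen F4/80, at 1.46, Ada, the adenosine deaminase gene, at 1.62, and Phlda1 at 1.84. None of these 5 was called in the OPC comparison, and Phlda1 had the smallest adjusted p, 0.149, in the authors' deposited table. The genes nearest Ackr3 were the secreted Wnt inhibitor gene Wif1 at 0.402, Moxd1 at 0.513, Foxa2, a forkhead factor, at 0.562, the Wnt effector gene Lef1 at 0.576 and Hpx, the haemopexin gene, at 0.577. Wif1 and Lef1 were called in the OPC comparison, at 1.51 and 1.89, in the authors' deposited table. All 5 were near 0 TPM in the sorted libraries, as Ackr3 was. The OPC log2 fold change that chose the receptors is among the 3 values, and its SE is not. Nearness to genes that rose in the OPC comparison was therefore built in, and nothing is read from it.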

How the data were processed

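Members and lists were chosen with earlier results of these data known. Sequencing was paired-end at 150 bases, per the labels' protocols, on GRCm38 per the submitters' processing notes, and no aligner or counter is named there. The OPC table deposited by the authors holds, per the file headers, the log2 fold change, its SE and a test statistic (a score), p-values, and mean normalized counts (a signal of level). Its signs run opposite to those given here and were turned. The deposited files of the sorted cells hold estimated counts and TPM computed by the authors, per the file headers, and 8 columns were not used. Macrophage columns carry codes found in no label and were assigned to the group.

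Blanks were taken as 0 and estimated counts rounded. For Th1 over macrophage libraries, edgeR 4.0.16 was used (quasi-likelihood, TMM, filterByExpr with a minimum count of 10, Benjamini-Hochberg over all tested genes, adjusted p under 0.05 and at least 4-fold), checked on simulated data, with DESeq2 1.42.0 and limma 3.58.1 as alternatives. The filter removed Ackr3 and Cxcl12. Pairs of macrophage libraries had a mean chi-square per gene between 1.16 and 1.33 for genes of 20 to 2000 reads, and between 9.34 and 72.1 for genes over 100000 reads, where counting noise alone gives about 1. They were kept as 3 libraries, and whether they are repeat runs of 1 sample is not known. The floor is 3 reads. Intervals are exact Poisson, or normal at 95% from the SE for OPC values. SE ratios use the 100 genes on each side by mean. Promoters are from RefSeq, gene models from GENCODE M21 (99.8% of OPC identifiers matched). Named genes are the 3 members, of each list those with the smallest OPC p or highest TPM plus the calls of the OPC comparison (those of the sorted comparison are named in part), the genes behind the sort, the 5 most alike per receptor and the genes that set the sign. Other named list members were chosen after their values were seen. Tables, tests and figures were made with matplotlib 3.10.9, scipy 1.17.1, pandas 2.3.3, numpy 2.4.6, Python 3.11.15 and R 4.3.3.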

Additional observations from a re-analysis of the deposited data

How the results depend on the processing

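OPC values of the 3 genes are as deposited, and adjusting p again over genes with a mean of at least 10 normalized counts kept both receptors called and Cxcl12 uncalled. For the sorted libraries, 7812 genes were called in the main comparison, against 4417 by the DESeq2 test, 3863 by limma on log2(TPM + 1) and 3864 by the same without a filter. Leaving out 1 macrophage library at a time gave 7778 to 7790 calls and a Cxcr4 log2 fold change of 4.08 to 4.09. In CPM in place of TPM the macrophage means were 11.8 for Cxcr4, 0.0855 for Ackr3 and 0.0569 for Cxcl12, against 3.82, 0.0233 and 0.0167 TPM, a change of unit. Leaving out 1 macrophage library gave TPM means of 3.77 to 3.85 for Cxcr4, 0.0150 to 0.0300 for Ackr3 and 0.0100 to 0.0200 for Cxcl12. With the filter on low counts Ackr3 and Cxcl12 were not tested. Without it both entered the edgeR and limma fits, but no fold is given for reads at or under the 3-read floor. No paired analysis was possible because the OPC table holds no value per library and the sorted groups share 1 number at most. The cause of the other differences in calls was not tested.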

Other observations

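Regulators of the receptor genes were measured in the sorted groups too. Of 8 tested by edgeR, 1 was called higher in the library labelled Th1 and 4 lower, against 13.7% higher and 54.6% lower over all tested genes, so the count is near the background. Yy1, a repressor of CXCR4 in human cells, had 142 TPM in the library labelled Th1 and 5.37 ± 0.242 TPM in the macrophage libraries (SD, n = 3), a log2 fold change of 6.24 by edgeR (adjusted p = 3.86e-29). Klf2, a factor that governs lymphocyte trafficking, had 0.37 TPM in the library labelled Th1 and 76.8 ± 1.55 TPM in the macrophage libraries (SD, n = 3). Its log2 fold change was -7.04 by edgeR (adjusted p = 1.46e-15).

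CXC chemokines other than Cxcl12 were mostly read in the macrophage libraries. Of 9 tested by edgeR, none was called higher in the library labelled Th1 and 7 were called lower, against 54.6% called lower over all tested genes. With DESeq2 size factors 4 of the 9 were called lower, and with library totals alone all 9. Cxcl3, Cxcl16 and Ppbp lost the call with DESeq2 size factors (adjusted p = 0.132, 0.300 and 0.265 by edgeR). Cxcl2, a ligand of CXCR2, had no read in the library labelled Th1 and 681, 688 and 686 TPM in the macrophage libraries. Cxcl10, a ligand of CXCR3, had no read in the library labelled Th1 and 30.4 ± 0.978 TPM in the macrophage libraries (SD, n = 3). Missing reads in that library were not particular to chemokines.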
